A study of Mus musculus with 2 samples.

Results

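The AP-1 and small Maf transcription factors described here are the Fos family genes *Fos*, *Fosb*, *Fosl1* and *Fosl2*, the Jun family genes *Jun*, *Junb* and *Jund*, and the small Maf genes *Maff*, *Mafg* and *Mafk*. They were chosen by name, with every probe of each gene, and with earlier results of these data known. They make up 10 of the 20655 genes that could be named on the arrays. The gene microarray compared RAW264.7 cells, an established mouse macrophage line derived from an Abelson murine leukemia virus-induced tumour of a BALB/c male adult, after 24 h with vehicle or with IR-61. IR-61 is a near-infrared heptamethine cyanine dye that accumulates in mitochondria, and the study asked how it acts on macrophage activation. The treated culture received 10 μM of the dye. The sources describe no inflammatory stimulus for the cells of either array. Each condition had 1 culture and 1 array, so no replicate error between cultures exists and no test between conditions was run.

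AP-1 is a family of dimers held together by a basic leucine zipper, in which a Fos protein must pair with a Jun protein while Jun proteins can also pair with each other. Several of the genes are immediate early genes, transcribed within minutes when MAP kinases and calcium signals reach their promoters, and in macrophages AP-1 acts beside NF-κB on cytokine and protease genes. The small Maf proteins carry the same type of zipper but lack a transactivation domain. They repress as homodimers and activate or repress when paired with cap'n'collar or BACH proteins such as NRF2, the regulator of antioxidant genes.

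Both arrays were single-colour Agilent arrays on the same slide and from the same scan, each with 44397 spots, and 16870 genes were well above background on both. A signal is the background-subtracted intensity of a spot, and a level is its log2 value minus the 75th percentile of its array. This percentile was 10.30 for vehicle and 10.79 for IR-61 on the log2 scale, so the IR-61 array was brighter as a whole by 0.49. Of the probes used, 77.5% were called well above background for vehicle and 81.2% for IR-61. A difference is IR-61 minus vehicle in level, and 2-fold is a difference of 1. The error given after a difference is the SD expected from the scatter between spots of the same probe, combined over both arrays. It was pooled over probes of like intensity, and a probe with more spots has a smaller error. This error leaves out the difference between cultures. Across all measured genes the median difference was 0.10 and the 5th to 95th percentiles were −0.62 to 0.75.

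All 10 genes were well above background on both arrays. *Fos*, *Fosl2*, *Junb* and *Maff* were lower with IR-61 by 2-fold or more, and none of the 10 was higher by 2-fold. Each of the 3 families thus held at least 1 gene that was lower by 2-fold and at least 1 that was within 1.5-fold of its vehicle level. Over all measured genes, 1.39% were lower by 2-fold or more (234 genes) and 1.99% were higher (335 genes). These totals moved with the scaling, to 294 lower and 248 higher with each array's median in place of its 75th percentile, and to 72 lower and 2153 higher with no scaling. The median difference of the 10 genes was −0.14, and 6 of them had a negative difference. Since the arrays read RNA from whole cultures, less RNA per cell and fewer cells holding the transcript cannot be told apart.

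**Figure D1:**
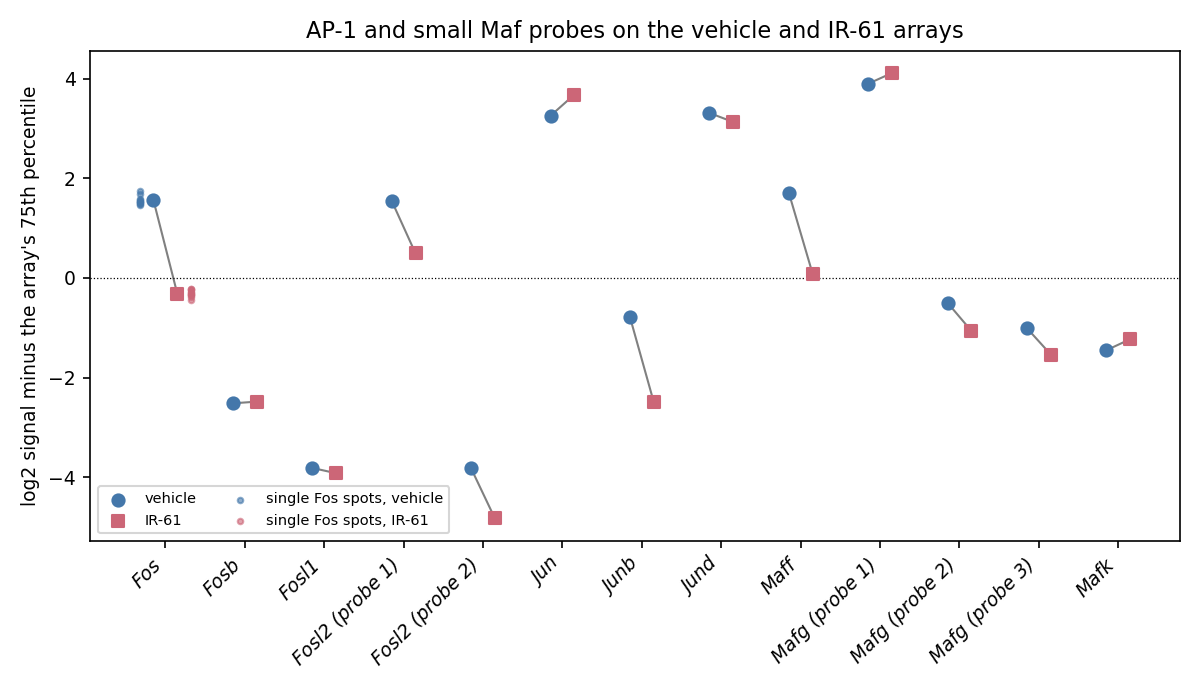
Level of each probe of the 10 genes (vertical axis, log2 signal minus the 75th percentile of the array) with vehicle (circles) and IR-61 (squares), with a line joining both arrays and the 10 single spots of Fos drawn beside its means. Slopes can be compared between probes, heights cannot. The steepest lines are those of Fos, Junb and Maff, and both Fosl2 probes slope down in parallel.

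The stretch before the transcription start is shown for the genes that were lower by 2-fold and, beside *Junb*, for its paralog *Jun*, which was not. The windows cover 250 bases and come from a RefSeq promoter set on GRCm38.p6. That set held 9 of the 10 genes, without *Fosl1*, and 11 starts in all, 3 of them for *Maff*. The windows are written 5′ to 3′ on the strand of the gene and end at the base before the start. Capitals mark the cyclic AMP response element core TGACG, the 8-base AP-1 variant TGACATCA, the palindrome TGACGTCA and the NF-κB motif.
Fos, chr12:85473640-85473889, plus strand: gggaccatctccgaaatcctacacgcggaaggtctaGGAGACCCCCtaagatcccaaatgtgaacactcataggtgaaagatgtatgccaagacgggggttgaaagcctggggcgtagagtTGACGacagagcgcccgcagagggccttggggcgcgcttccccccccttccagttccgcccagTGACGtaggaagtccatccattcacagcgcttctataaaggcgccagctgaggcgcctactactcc
Fosl2, chr5:32136222-32136471, plus strand: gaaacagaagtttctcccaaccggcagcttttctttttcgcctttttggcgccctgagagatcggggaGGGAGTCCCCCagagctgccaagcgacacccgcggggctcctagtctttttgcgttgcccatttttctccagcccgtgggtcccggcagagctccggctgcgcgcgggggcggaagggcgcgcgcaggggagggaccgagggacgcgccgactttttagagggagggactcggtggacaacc
Junb, chr8:84978749-84978998, minus strand: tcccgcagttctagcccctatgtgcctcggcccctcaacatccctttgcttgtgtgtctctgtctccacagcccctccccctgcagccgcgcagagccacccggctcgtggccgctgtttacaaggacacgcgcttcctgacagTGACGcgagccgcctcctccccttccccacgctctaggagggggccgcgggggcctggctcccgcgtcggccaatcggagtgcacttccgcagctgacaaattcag
Jun, chr4:95052223-95052472, minus strand: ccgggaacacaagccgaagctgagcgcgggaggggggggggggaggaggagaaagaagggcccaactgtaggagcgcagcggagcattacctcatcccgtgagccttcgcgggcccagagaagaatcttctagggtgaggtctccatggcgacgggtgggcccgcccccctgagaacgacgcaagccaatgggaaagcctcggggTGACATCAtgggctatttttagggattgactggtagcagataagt
Maff, second of its 3 starts, chr15:79347270-79347519, plus strand: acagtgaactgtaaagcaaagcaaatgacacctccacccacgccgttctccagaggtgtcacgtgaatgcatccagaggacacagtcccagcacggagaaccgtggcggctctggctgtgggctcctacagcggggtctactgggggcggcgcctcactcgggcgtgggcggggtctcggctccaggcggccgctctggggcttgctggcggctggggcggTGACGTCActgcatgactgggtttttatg
Both strands were searched for each motif. TGACG lay in 7 of the 11 windows, from 6 of the 9 genes, against 17.8% of all 32851 promoter windows of this length. In *Fos* it stood 129 and 66 bases before the start, the nearer one upstream of a TATAAA box at 33 bases, and in *Junb* it stood at 106 bases. The palindrome TGACGTCA, which contains TGACG on both strands, was found in 1.55% of all windows and, among these genes, at 29 bases before the second start of *Maff*. TGACATCA was found in 2.93% of all windows, in *Jun* at 45 bases and before the third start of *Maff* at the same distance. The AP-1 heptamer TGANTCA, searched with any base at N, was in none of the 11 windows and in 6.75% of all. The serum response motif (CArG) was in none of the 11 and in 1.47% of all. Bases more than 250 before a start were not searched, so sites of any motif farther upstream would be missed. The NF-κB motif was in 7.25% of all windows and was found in *Fos*, *Fosb*, *Fosl2* and the third start of *Maff*. The 11 windows had a median GC content of 64.0% against 52.4% over all windows. TGACG was present in genes that were lower by 2-fold (*Fos*, *Junb*, *Maff*) and in others that were not (*Fosb*, *Mafg*, *Mafk*), so its presence did not separate them. A match of letters is a description of the window only.

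In the Fos family, *Fos* and *Fosl2* were lower by 2-fold or more and *Fosb* and *Fosl1* were not. *Fos*, the prototype immediate early gene, had the lowest difference of the 10 genes. Its probe was printed 10 times on each array. With vehicle the spots read from 3474 to 4217 with a median of 3675, and with IR-61 from 1307 to 1527 with a median of 1423. No spot of the IR-61 array reached the lowest spot of the vehicle array, although that array was the brighter one. The mean level ± SD between spots was 1.56 ± 0.087 for vehicle and −0.31 ± 0.072 for IR-61 (10 spots each). The difference was −1.87 ± 0.030, or 3.67-fold lower after scaling. Its error is the one pooled over probes of like intensity and was not taken from these spots alone. *Fos* had rank 38 of 16870 from the largest fall.

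*Fosl2*, which encodes the Fos-related antigen FRA2, was read by 2 probes of very different brightness. The signal of the brighter one was 3697 with vehicle and 2497 with IR-61, a difference of −1.05 ± 0.094, or 2.08-fold lower. That of the dimmer one was 89.4 and 62.4, a difference of −1.01 ± 0.30, or 2.01-fold lower. The probes gave the same direction and nearly the same size, both just past the 2-fold limit by less than their own errors. The brighter probe missed the limit with no scaling (−0.57) and with normexp background correction (−0.85).

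*Fosb*, which also yields the truncated ΔFosB protein, had a signal of 221 with vehicle and 317 with IR-61. Its difference was 0.03 ± 0.23, within the scatter between spots. *Fosl1*, which encodes FRA1, had a signal of 89.9 with vehicle and 117 with IR-61. Its difference was −0.11 ± 0.23, also within that scatter. The signals of *Fosl1* were 7.03 and 7.20 times the lowest signal well above background on their arrays. Within the family, the log2 difference of *Fos* minus that of *Fosb* was −1.91 ± 0.23, minus that of *Fosl1* −1.77 ± 0.23 and minus that of *Fosl2* −0.82 ± 0.099. Each of these gaps was over 7 times its expected spot scatter.

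In the Jun family, *Junb* was lower with IR-61 while *Jun* and *Jund* stayed within 1.5-fold of vehicle. *Junb* encodes a Jun protein with weaker transactivation than JUN that can hold JUN back in dimers. Its signal was 735 with vehicle and 316 with IR-61, a difference of −1.71 ± 0.23, or 3.27-fold lower, and it had rank 54 from the largest fall. Its single probe had 1 spot per array, so its value rests on 1 reading per condition. Every other probe of these genes except that of *Fos* also had 1 spot per array.

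*Jun*, which encodes the main partner of FOS and the substrate of JNK, had a signal of 12059 with vehicle and 22711 with IR-61. Its difference was 0.42 ± 0.094, or 1.34-fold higher, 4.50 times the spot scatter but under the 2-fold limit, and it was the highest difference of the 10 genes. *Jund*, the Jun gene that is usually expressed constitutively, had a signal of 12548 with vehicle and 15520 with IR-61. Its difference was −0.18 ± 0.094, or 1.13-fold lower, and with no scaling it was 0.31, so its sign rests on the scaling. The difference of *Junb* minus that of *Jun* was −2.13 ± 0.25 and minus that of *Jund* −1.53 ± 0.25, and that of *Jund* minus that of *Jun* was −0.61 ± 0.13. Between the families, *Fos* minus *Jun* was −2.30 ± 0.099, the widest gap of the 10 pairs compared. Any factor common to a whole array cancels in such gaps.

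**Figure D2:**
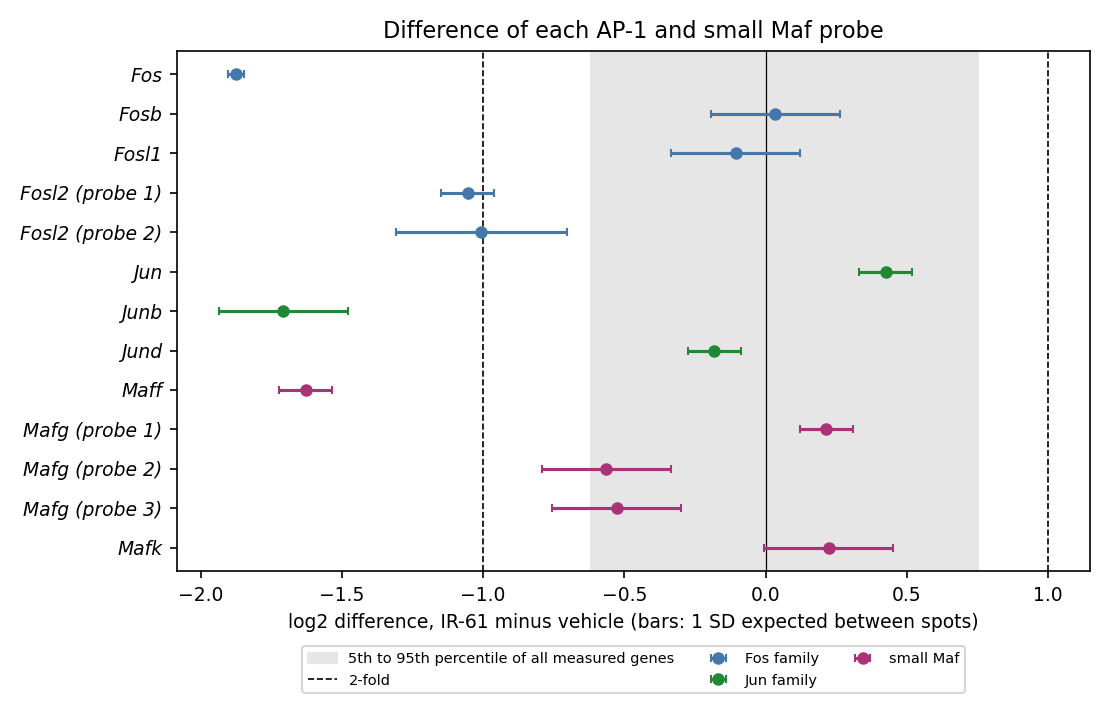
Difference of each of the 13 probes (horizontal axis, IR-61 minus vehicle, log2; points coloured by family) with bars of 1 SD expected from the scatter between spots, the 2-fold limits as dashed lines and the 5th to 95th percentile of all measured genes shaded. Fos, both Fosl2 probes, Junb and Maff lie at or past the lower limit, and the other 8 probes lie within the shaded range.

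Of the small Maf genes, *Maff* was lower with IR-61 and *Mafg* and *Mafk* were not past the limit. *Maff* is the small Maf gene best known for induction by inflammatory cytokines and growth factors. Its signal was 4147 with vehicle and 1883 with IR-61, a difference of −1.63 ± 0.094, or 3.09-fold lower, and it had rank 61 from the largest fall. *Mafk*, a partner of NRF2 and of the erythroid factor NF-E2, had a signal of 462 with vehicle and 757 with IR-61. Its difference was 0.22 ± 0.23, within the scatter between spots.

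*Mafg*, the other widely expressed partner of cap'n'collar proteins, was read by 3 probes that disagreed in sign. The brightest went from 18837 with vehicle to 30668 with IR-61, a difference of 0.21 ± 0.094. The second went from 894 to 848, a difference of −0.56 ± 0.23, and the third from 628 to 611, a difference of −0.53 ± 0.23. Which transcript of *Mafg* each probe reads was not tested, all 3 carried the same RefSeq accession, and no direction is given for the gene. The difference of *Maff* minus that of the brightest *Mafg* probe was −1.84 ± 0.13 and minus that of *Mafk* −1.85 ± 0.25, while that of *Mafg* minus that of *Mafk* was −0.01 ± 0.25.

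*Fos*, *Junb* and *Maff* were among the 61 lowest of 16870 differences, and *Fosl2* had rank 205, while *Jun*, the highest, stood above 81.9% of genes. Relative to the median of all measured genes, which any constant scaling leaves as it is, the differences were −1.97 for *Fos*, −1.81 for *Junb*, −1.73 for *Maff* and −1.15 for *Fosl2*. On the same footing *Fosb*, *Fosl1*, *Jund*, *Mafg* and *Mafk* ranged from −0.28 to 0.12 and *Jun* was at 0.33.

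**Figure D3:**
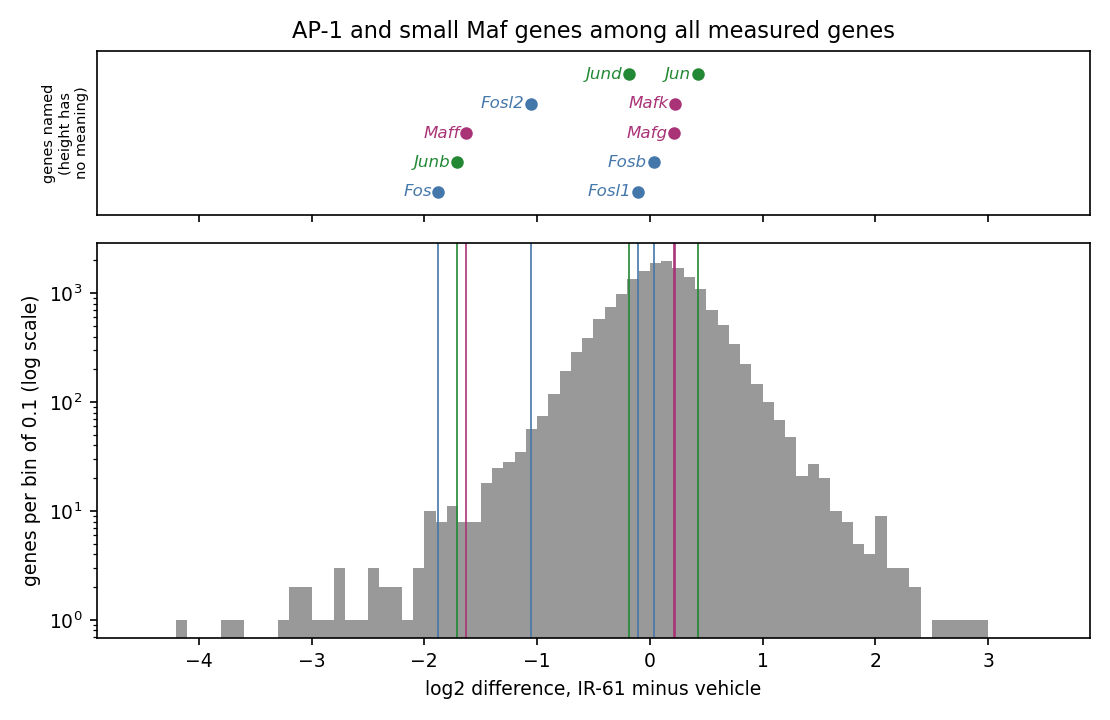
The lower panel counts the 16870 measured genes by their difference (horizontal axis, IR-61 minus vehicle, log2, in bins of 0.1; vertical axis, genes, log scale), with a vertical line for each of the 10 genes, and the upper panel names them in the colours of their families. Fos, Junb and Maff stand in the lower tail, Fosl2 at its edge near −1.05, and the other 6 within the body between −0.18 and 0.42.

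The other genes of the network were taken from lists by role, and the shares of 1.39% lower and 1.99% higher over all genes apply to each. Among the AP-1 relatives, basic leucine zipper proteins that pair with Fos or Jun proteins or bind related sites, 12 of 13 were measured, 2 were lower by 2-fold and none was higher. *Ddit3*, which encodes the stress-induced protein CHOP, had a signal of 2701 with vehicle and 1347 with IR-61, a difference of −1.49 ± 0.094. *Jdp2*, a repressor that dimerizes with Jun, went from 2978 to 1593, a difference of −1.39 ± 0.094, and with no scaling it was at −0.90. The highest difference in the list was 0.60 ± 0.094, for *Atf2*, a JNK and p38 substrate, whose other 3 probes ran from −0.07 to 0.46. Looked up after the values were seen, *Atf3*, a stress-inducible AP-1 partner, was at 0.21 ± 0.094, and *Atf4*, the effector of the integrated stress response, at −0.48 ± 0.094 by its brightest probe and −1.16 ± 0.094 by another. The list had a median of −0.18.

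Of the 24 kinases of the MAP kinase cascade that leads to AP-1, all were measured and none was past 2-fold in either direction. Their differences ran from −0.92 ± 0.094 for *Map2k3*, an activator of p38, to 0.61 ± 0.094 for *Mapkapk2*, a kinase downstream of p38, with a median of 0.17. These are transcript levels and say nothing of phosphorylation. Of the 10 transcription factors that feed the promoters of *Fos* and *Jun*, 1 was lower by 2-fold. It was *Srf*, which encodes the serum response factor and went from 8642 to 5824, a difference of −1.06 ± 0.094, with a second probe at −0.52 ± 0.23 and a value of −0.57 with no scaling. The highest of that list was *Elk4*, a ternary complex partner of serum response factor, at 0.68 ± 0.23, with its other 2 probes at −0.11 and 0.02. Among 10 genes that control the stability or activity of AP-1 proteins, *Jdp2* was again the only one past 2-fold, and the highest was *Itch*, a ubiquitin ligase for JUN and JUNB, at 0.68 ± 0.094.

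**Figure D4:**
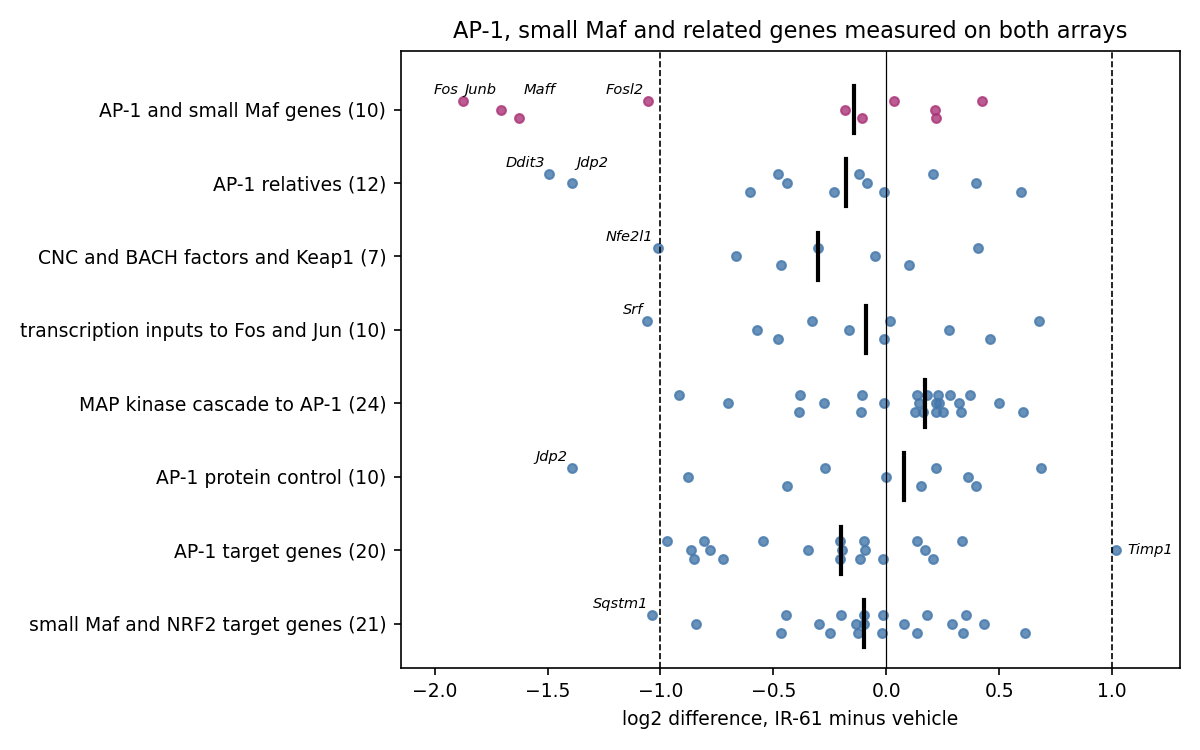
Difference of every gene measured on both arrays (horizontal axis, IR-61 minus vehicle, log2) for the 10 genes and 7 related lists, with the number of measured genes in brackets, the median as a black bar and the 2-fold limits as dashed lines; vertical offsets within a row have no meaning. Genes at or past 2-fold are named, and 4 of them are in the top row.

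The cap'n'collar and BACH factors that pair with small Maf proteins were listed together with *Keap1*, the cytoplasmic inhibitor of NRF2, and all 7 genes were measured. *Nfe2l1*, which encodes the proteasome regulator NRF1, was the only one of the 7 lower by 2-fold, from 127 to 88.2, a difference of −1.01 ± 0.23, and it was at −0.52 with no scaling. *Bach1*, the heme-regulated repressor that competes with NRF2, was the highest at 0.41 ± 0.094, and the list had a median of −0.30.

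Among 22 genes known as AP-1 targets in other cells, 20 were measured. By the brightest probe none was lower by 2-fold and 1 was higher. *Timp1*, an inhibitor of matrix metalloproteinases, went from 3621 to 10280, a difference of 1.02 ± 0.094, and it was at 0.93 with scaling by the median. The lowest was the membrane metalloproteinase gene *Mmp14* at −0.97 ± 0.23, and it was at −1.05 with scaling by the median, so that under this setting 1 gene of the list was lower by 2-fold and 0 were higher. *Odc1*, looked up after the values were seen, was at −0.85 ± 0.094 by its brightest probe. Its other probes were at −0.71 ± 0.23 and −1.88 ± 0.16, and its lowest value under another setting was −1.14. As reported, 15 of the 20 had a negative difference and the list had a median of −0.20. *Lif*, a cytokine of the interleukin-6 family, cleared background on the vehicle array alone, with dim signals of 36.0 with vehicle and 15.2 with IR-61. Against the lowest signal well above background of the IR-61 array it was at least 3.11-fold lower. On the log2 scale this bound was −1.64 ± 0.35, and it includes the scaling. *Fasl* was not well above background on either array. Of 21 target genes of small Maf and NRF2, all measured, 1 was lower by 2-fold and none was higher. That gene was *Sqstm1*, which encodes the autophagy receptor p62, from 8154 to 5580, a difference of −1.04 ± 0.094, and at −0.55 with no scaling. The highest was *Me1*, malic enzyme, at 0.61 ± 0.19, with its other 2 probes at 0.12 and −0.05, and the median was −0.10.

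Macrophage markers were well above background on both arrays, and so were most of the listed markers of other cell types. Of 10 macrophage markers 9 were among the named genes and all 9 were measured, from −0.83 ± 0.23 for *Spi1*, the myeloid factor PU.1, to 1.03 ± 0.094 for *Adgre1*, which encodes an adhesion receptor of mature macrophages, with a median of −0.04. Of 12 markers of other cell types, 9 were measured with a median difference of 0.00, and *Ncr1*, *Epcam* and *Adipoq* did not clear background on any array. Differences between the arrays do not show which cell type the RNA came from. The B cell marker *Ms4a1* was lower by 2-fold, at −1.46 ± 0.23 with signals of 353 and 180. The fibroblast collagen gene *Col1a1* was the highest at 0.62 ± 0.094, with signals of 27148 with vehicle and 58670 with IR-61. Another collagen gene, *Col3a1*, had signals of 5152 and 5697. The part of such signals in the differences of the AP-1 genes was not tested. The 10 housekeeping genes had a median of −0.09 and ranged from −0.24 for *B2m* to 0.80 for *Hprt*, none past 2-fold.

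The differences of the 10 genes were recomputed under 12 other settings of scaling, background, probe choice and filtering. *Fos*, *Junb* and *Maff* stayed at or past 2-fold lower under all 12, within −1.96 to −1.39, −1.79 to −1.22 and −1.71 to −1.14. *Fosl2* did so under 10 of the 12. *Jun* and *Mafk* were positive under all 12, *Jun* between 0.34 and 0.91. *Fosb*, *Fosl1*, *Jund* and *Mafg* each took both signs.

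**Figure D5:**
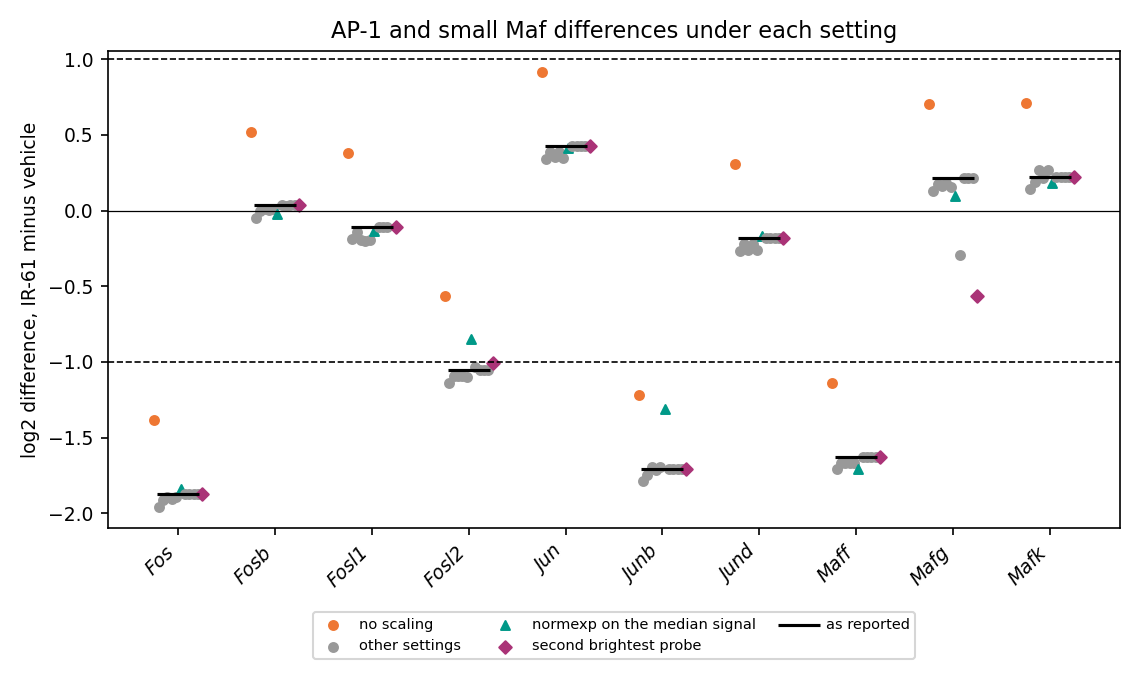
Difference of each of the 10 genes (vertical axis, IR-61 minus vehicle, log2) as reported (black bars) and under each other setting (points; no scaling, normexp and the second brightest probe have their own symbols), with the 2-fold limits as dashed lines. With no scaling all 10 lie 0.49 higher, and Fos, Junb and Maff are still below the lower limit.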

How the data were processed

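RNA of 1 vehicle-treated and 1 IR-61-treated RAW264.7 culture was labelled with Cy3 and hybridized to single-colour Agilent mouse arrays (design build mm9). The authors deposited the intensity of each spot, background-subtracted and detrended by Agilent Feature Extraction (11.0.1.1 in the file headers, 11.0.0.1 in the submitters' processing notes), with 0/1 flags, and a table of log2 values whose columns share their quartiles. The dose came from the study's description, the groups from the labels. Control spots and outlier-flagged spots (124 and 139) were left out, no spot was saturated, log2 intensities of a probe's spots were averaged, and the array's 75th percentile was subtracted. Of 39419 probes 27224 were named by RefSeq accession in a GRCm38.p6 gene table, used for names. The brightest probe stood for a gene, and a gene counted as measured where every spot used of that probe was well above background on both arrays. For a gene above background on 1 array, the fold is a bound, taken against the floor of the other array (its lowest signal well above background, 12.8 or 16.3) or the probe's own signal if that was larger. The spot error came from those of the 399 probes printed 10 times that were well above background, 310 for vehicle and 327 for IR-61, by intensity. The number of arrays limits the precision.

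With 1 array per condition, conditions were compared without a test. All 10 genes are named with every probe, and of each list the genes past 2-fold and otherwise the largest fall and rise. The members and lists were chosen with earlier results of these data known. Of the related lists, 1 is not reported here. The settings tried were other scalings, normexp (offset 50, limma), the deposited log2 values, other probe rules, filters and fold limits. Normexp used the median signal, and 5 IR-61 spots with a local background over 10 times the median were given the median background. The steps were tested on simulated data. Python 3.11.15, numpy 2.4.6, pandas 2.3.3, statsmodels 0.14.6, matplotlib 3.10.9, R 4.3.3 and limma 3.58.1 were used.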

Additional observations from a re-analysis of the deposited data

How the results depend on the processing

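The count of the 10 genes lower by 2-fold was 4 as reported and 3 with no scaling, with normexp and at a 3-fold limit, and 4 under the other 11 of 14 settings. *Fosl2* was the gene that missed the limit each time. The count higher by 2-fold was 0 under all 14. The median difference of the 10 genes was −0.14 as reported, 0.34 with no scaling, and −0.37 with the second brightest probe of *Fosl2* and *Mafg*, a setting chosen after seeing the data. With no scaling the whole array's brightness stays in each difference, and the median of all measured genes was 0.59 in place of 0.10. Over all measured genes, 129 were lower and 119 higher with normexp, 440 and 921 with no filter on dim probes, 160 and 156 at a signal of at least 100, 959 and 1652 at a 1.5-fold limit, and 64 and 50 at a 3-fold limit. *Fosl1* had no value at a signal of at least 100. No paired analysis was possible because there was 1 array for vehicle and 1 for IR-61, with nothing to pair across. Signals under a log2 of 6 carried a spot SD of 0.25 and 0.24, against 0.070 and 0.063 above 10, so dim probes are read less precisely.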

Other observations

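Other basic leucine zipper factors outside the AP-1 and Maf families were listed after the data were seen, 20 genes of the C/EBP, PAR, CREB and ER stress groups, all measured. Of these, 2 were higher by 2-fold and none was lower, with a median of 0.02, against 1.99% higher and 1.39% lower over all genes. *Dbp*, a clock output factor that binds D-boxes, went from a signal of 881 with vehicle to 7818 with IR-61, a difference of 2.66 ± 0.19, and its second probe gave 2.29 ± 0.19. *Tef*, a PAR factor of the same D-box group, went from 5496 to 15519, a difference of 1.01 ± 0.094, and it was at 0.93 when the arrays were scaled by their medians. The lowest of the list was *Creb3l2*, a membrane-bound factor of the secretory pathway, at −0.65 ± 0.23. *Cebpb*, the C/EBP factor of macrophage activation, was at −0.29 ± 0.094.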
